A study of Arabidopsis thaliana with 12 samples.

Results

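The interaction of genotype and phosphate was described for every gene of the root table, that is for how far the response to low phosphate (Pi) in CRR OE roots departed from the response in Col-0 roots. All 19802 genes of the table belong to it, and no gene was chosen by its values. A response is the –Pi mean minus the +Pi mean of one line on the log2 CPM scale, where CPM are counts adjusted for how deeply each library was sequenced, and the interaction is the CRR OE response minus the Col-0 response. A positive interaction therefore means a higher response in CRR OE, and it equals the difference between the lines in –Pi minus the difference between the lines in +Pi. Genes were counted when the highest of their 4 group means was at least 2 log2 CPM, which 17046 of the 19802 genes met and 2756 did not.

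The libraries fall into 4 groups. CRR OE –Pi roots and CRR OE +Pi roots came from a line in the Col-0 background that expresses a CRR-GFP fusion from the *35S* promoter of cauliflower mosaic virus, which is active in most plant cells. Col-0 –Pi roots and Col-0 +Pi roots came from the wild type. All seedlings grew for 7 days on agar plates, with 1 mM Pi in +Pi and no added Pi in –Pi, and each of the 4 groups has 3 libraries, 12 in all. A library holds the roots of many pooled seedlings, so whole roots of 1 transgenic line are compared, not single root zones or several insertion events. The expression table holds a single mean per group, made by the authors, and no value per library. Every level below is thus the authors' mean of its group in log2 CPM, without SD, and no difference could be tested against the spread between libraries. The interactions below are described by their size, and the depth of each library is not given in the table used here.

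CRR belongs to the CYBDOM proteins, which join a cytochrome b561 to a DOMON domain in the plasma membrane and pass electrons from ascorbate inside the cell to acceptors outside it, ferric iron among them. Low Pi acts on Arabidopsis roots by at least a pair of routes. The PHR1 and SPX proteins sense the Pi status of the cell and switch on Pi transporters, phosphatases and lipid remodelling. A local route in the root tip depends on malate release through ALMT1, on the ferroxidase LPR1 and on iron in the cell wall, where reactive oxygen species and peroxidases stiffen walls and growth of the primary root stops.

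*CRR* (AT3G25290, chromosome 3, 9208861 to 9210653, TAIR10) checks the labels. Its level was 12.72 log2 CPM in CRR OE –Pi and 12.70 in CRR OE +Pi, against 5.95 in Col-0 –Pi and 5.96 in Col-0 +Pi. The transcript was thus 109-fold higher in CRR OE in –Pi and 108-fold higher in +Pi, and its interaction was 0.02, so the excess of *CRR* RNA was the same size in both media. Reads of the transgene and of the native gene fall on the same gene model and are not told apart here. Among markers of root cell types, 33 of 33 root hair genes and 12 of 13 Casparian strip genes passed the filter. So did 12 of 16 stem cell niche, 13 of 16 vascular and 6 of 7 root cap genes. The endodermal gene *CASP1* had 6.16 and 6.16 log2 CPM in CRR OE –Pi and +Pi and 6.11 and 6.08 in Col-0 –Pi and +Pi. Among 44 photosynthesis genes 31 passed the filter, and the highest mean of the small subunit gene *RBCS-1A* was 4.0 log2 CPM. All genes kept lie on chromosomes 1 to 5, so no gene encoded in the plastid is among the 31.

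The interaction was small for most genes, and most genes had a small response in both lines. Of the 17046 genes, 94.6% had an absolute interaction under 0.5, and the median absolute interaction was 0.107. Between its 5th and 95th percentile the response itself ran only from -0.55 to 0.67 in Col-0 and from -0.39 to 0.53 in CRR OE. An interaction of at least 1, which is a –Pi to +Pi ratio in CRR OE at least 2-fold that in Col-0, was found for 81 genes (0.475% of those kept), and an interaction of at most -1 for 87 genes (0.51%). These 168 genes are 0.986% of those kept. They are called past the threshold below, and the call is one of size only. The spread of the interaction depended on the level of a gene. Between its 5th and 95th percentile lay -0.98 to 0.95 for the 3293 genes with a mean under 2 log2 CPM, -0.43 to 0.49 for the 5368 genes from 2 to 4, -0.28 to 0.31 for the 7407 genes from 4 to 6, -0.26 to 0.25 for the 3170 genes from 6 to 8 and -0.29 to 0.20 for the 564 genes above 8. A value of 1 is thus close to the edge of the ordinary range for weakly expressed genes and far outside it for strong ones. These classes cover all 19802 genes. Of the genes kept, 49, 69, 39, 11 and 0 in these 5 classes were past the threshold. The lowest class also holds the 2756 genes not kept, among which 135 had an interaction of at least 1 and 123 of at most -1.

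The threshold cuts through a continuous range of values. Just inside it lay *SWEET13* with -1.0, AT2G20142 with -1.0 and AT3G07310 with 1.0. Just outside lay *TOPP7*, which encodes a protein phosphatase of type one, with -0.99, the arabinogalactan protein gene *AGP14* with 0.997 and AT4G29905 with 0.99.

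**Figure D1:**
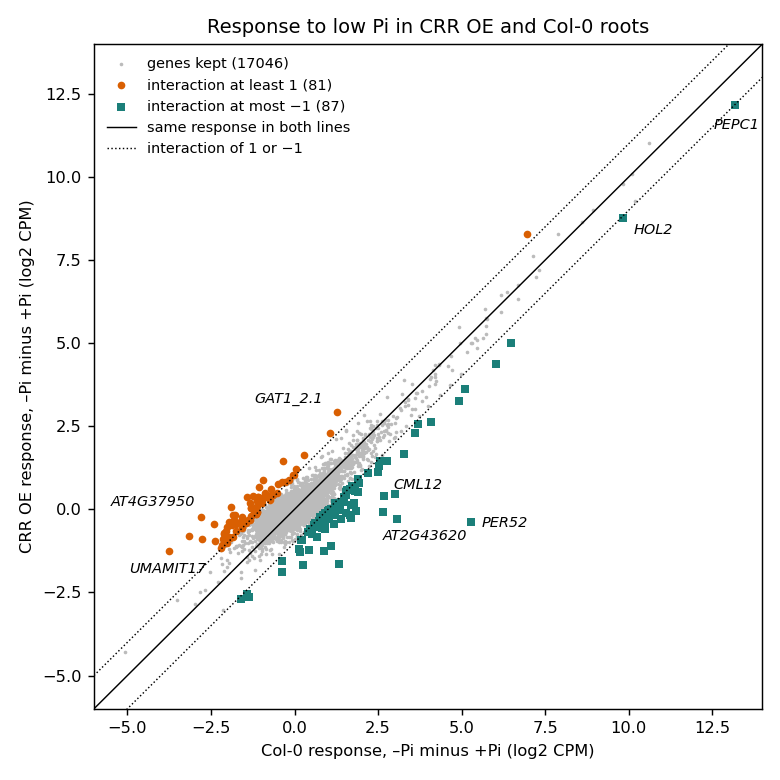
Response to low Pi (–Pi minus +Pi, log2 CPM) in CRR OE on the vertical axis and in Col-0 on the horizontal axis, 1 point per gene with a highest group mean of at least 2 log2 CPM. Orange circles are the 81 genes with an interaction of at least 1 and teal squares the 87 with at most -1; the solid diagonal marks equal responses, the dotted lines an interaction of 1 and -1, and most genes lie close to the diagonal.

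The size of the Pi response was similar in both lines for the genes with higher levels in low Pi and less so for those with lower levels. A response of at least 1 was seen for 432 genes in CRR OE (2.53%) and for 526 genes in Col-0 (3.09%), and 385 genes were in both sets, 89.1% of the CRR OE set and 73.2% of the Col-0 set. A response of at most -1 was seen for 85 genes in CRR OE (0.499%) and for 228 genes in Col-0 (1.34%), with 58 genes in both, 68.2% of the CRR OE set and 25.4% of the Col-0 set. Choosing genes by one line makes the other line look smaller, so the medians are given for either choice. The 432 genes chosen in CRR OE had a median response of 1.67 in CRR OE and 1.85 in Col-0, and the 526 chosen in Col-0 had 1.46 in CRR OE and 1.68 in Col-0. For lower levels, the 85 genes chosen in CRR OE had medians of -1.25 in CRR OE and -1.36 in Col-0, and the 228 chosen in Col-0 had -0.66 in CRR OE and -1.26 in Col-0. Under either choice the median of Col-0 was farther from 0 in both directions. Of the 526 genes chosen in Col-0, 55 had an interaction of at most -1 and 3 of at least 1. Of the 228 genes, 3 and 58 did. Of the 432 genes chosen in CRR OE, 15 and 8 did, and of the 85 genes, 12 and 4. The shares over all genes kept were 0.51% and 0.475%, and choosing by the response of one line itself shifts these counts.

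The lines differed mainly on low Pi. Over all genes kept, the root mean square of the CRR OE minus Col-0 difference was 0.252 log2 in –Pi and 0.167 in +Pi. In –Pi, 50 genes were at least 1 log2 higher in CRR OE (0.293%) and 51 at least 1 log2 lower (0.299%). In +Pi there were 7 such genes that were higher (0.0411%) and 6 that were lower (0.0352%). Of the 81 genes with a positive interaction, 74 had the larger difference between the lines in –Pi, with a median CRR OE minus Col-0 difference of 0.96 in –Pi and -0.28 in +Pi. Of the 87 with a negative one, 79 did, with medians of -0.95 in –Pi and 0.29 in +Pi. The small +Pi differences had the opposite sign to those in –Pi, and since the interaction is one minus the other, genes with opposite signs are favoured by the definition.

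**Figure D2:**
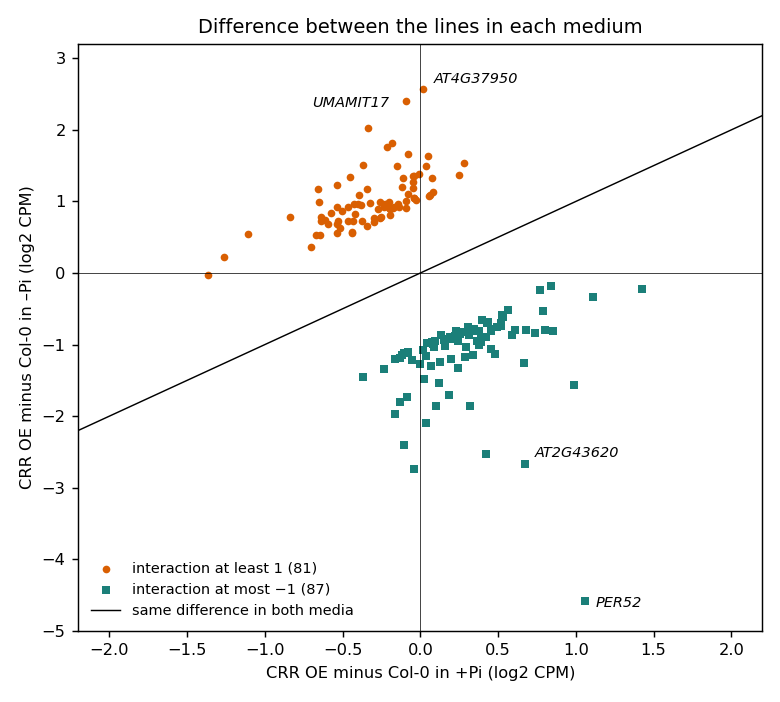
Difference between the lines (CRR OE minus Col-0, log2 CPM) in –Pi on the vertical axis and in +Pi on the horizontal axis for the genes past the interaction threshold, orange circles for an interaction of at least 1 and teal squares for at most -1. Points spread mainly along the vertical axis, as 153 of the 168 genes differed more in –Pi than in +Pi; AT1G64795 lies outside the plotted range.

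The 168 genes were classed by their responses, with a response of 0.5 log2 in either direction as the limit between classes. In most of them the response was the larger one in Col-0. Among the 81 genes with a positive interaction, 65 had a negative response in Col-0 (at most -0.5) and a less negative or small positive one in CRR OE (under 0.5), with median responses of -0.18 in CRR OE and -1.41 in Col-0. Another 12 had a response of at least 0.5 in CRR OE and a smaller one in Col-0 (above -0.5), with medians of 1.13 in CRR OE and -0.04 in Col-0. This class includes genes with a positive response in both lines, such as *UMAMIT10* with 2.30 in CRR OE and 1.07 in Col-0. The remaining 4 were at least 0.5 in CRR OE and at most -0.5 in Col-0. Among the 87 genes with a negative interaction, 66 had a positive response in Col-0 (at least 0.5) and a smaller or slightly negative one in CRR OE (above -0.5), with medians of 0.16 in CRR OE and 1.56 in Col-0. Then 13 had a response of at most -0.5 in CRR OE and a less negative one in Col-0 (under 0.5), with medians of -1.28 in CRR OE and 0.18 in Col-0. In this class *ATFRO5* had a negative response in both lines, -2.63 in CRR OE and -1.36 in Col-0. The remaining 8 were at most -0.5 in CRR OE and at least 0.5 in Col-0. Of the 168 genes 2, AT2G08820 and AT3G06355, are not protein coding, and both are long noncoding RNAs with a positive interaction.

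*PER52* (AT5G05340), a class III peroxidase of the kind that uses hydrogen peroxide to oxidise phenolics in the cell wall, had the most negative interaction of all genes kept. Its level was -0.83 log2 CPM in CRR OE –Pi and -0.46 in CRR OE +Pi, against 3.76 in Col-0 –Pi and -1.51 in Col-0 +Pi. In CPM these are 0.563 and 0.729 in CRR OE –Pi and +Pi, against 13.5 and 0.35 in Col-0 –Pi and +Pi. The Col-0 –Pi group stood alone, with the other 3 groups under 1 CPM. The responses were -0.37 in CRR OE and 5.27 in Col-0, and the interaction was -5.65, or -3.58 when 1 CPM was added to each mean, since a level this low makes a log ratio unsteady.

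*PER59* showed the same form at a low level, with 1.08 and 0.61 log2 CPM in CRR OE –Pi and +Pi against 2.64 and -0.38 in Col-0 –Pi and +Pi, and an interaction of -2.55. *PER49* was more strongly expressed, with 5.01 and 5.30 in CRR OE –Pi and +Pi against 6.82 and 5.43 in Col-0 –Pi and +Pi, and its interaction was -1.68. Both genes had their highest mean in Col-0 –Pi. *PER25* had another form, with 2.86 in CRR OE –Pi below 4.54 in CRR OE +Pi, against 4.12 in Col-0 –Pi and 3.87 in Col-0 +Pi, and an interaction of -1.92.

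Class III peroxidases held more genes past the threshold than any other list. Of the 60 members found, 54 passed the filter, and 9 had an interaction of at most -1 and 2 of at least 1, beside 0.51% and 0.475% of all genes. Besides the genes above, the negative ones were *PER54* (-1.65), *PER53* (-1.48), *PER8* (-1.32), *PER15* (-1.06) and *PER37* (-1.03), of which *PER37* and *PER15* had means of 6.04 and 5.21 log2 CPM in CRR OE –Pi against 7.15 and 6.40 in Col-0 –Pi. The median over the 54 members was -0.10, beside 0.00 over all genes kept, and 32 members were negative and 22 positive, so the family as a whole was not displaced by much. The most abundant members lay near 0, such as *PER42* with 0.03 and *PER34* with 0.07. The family has many close copies, and how reads shared by copies were assigned affects such values, so those of neighbouring copies are less certain.

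The positive members were the neighbours *PER4* and *PER5* on chromosome 1 (4974021 to 4975705 and 4978922 to 4980466). *PER4* had 4.70 and 5.01 log2 CPM in CRR OE –Pi and +Pi against 3.61 and 4.95 in Col-0 –Pi and +Pi, with an interaction of 1.03. *PER5* had 1.97 and 2.41 in CRR OE –Pi and +Pi against 0.20 and 2.63 in Col-0 –Pi and +Pi, with an interaction of 1.98. Both were low in Col-0 –Pi alone.

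**Figure D3:**
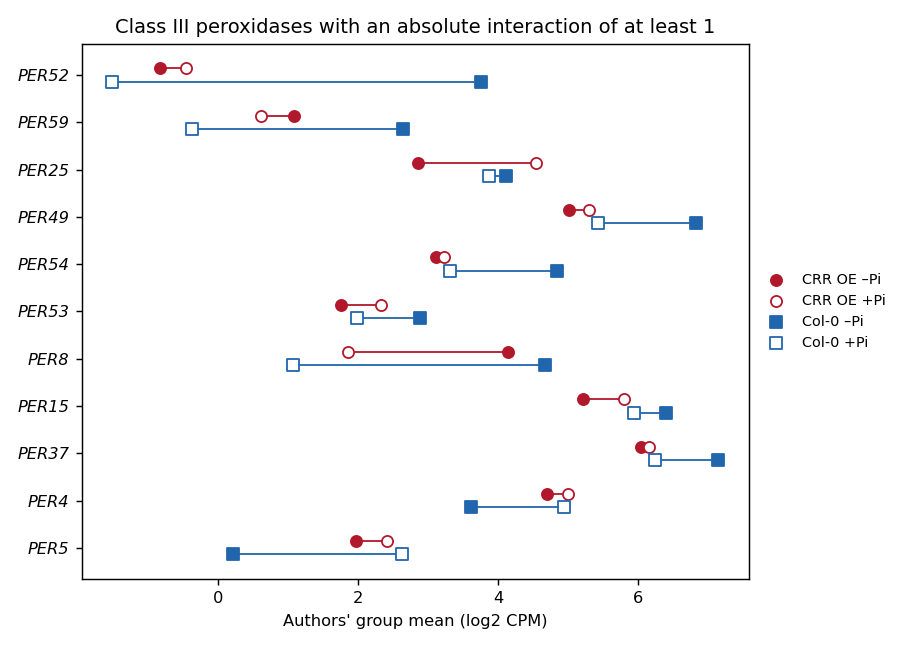
Authors' group means (log2 CPM) of the 11 class III peroxidase genes past the interaction threshold, 1 row per gene, with CRR OE in red and Col-0 in blue, filled for –Pi and open for +Pi. In PER52, PER59, PER49 and PER54 the filled blue symbol (Col-0 –Pi) stands to the right of the other 3, and in PER4 and PER5 to the left.

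*PER53* and *PER54* lie beside each other on the minus strand of chromosome 5 (2077382 to 2079005 and 2079925 to 2081685), 919 bases apart. *PER53* had 1.75 and 2.33 log2 CPM in CRR OE –Pi and +Pi against 2.89 and 1.99 in Col-0 –Pi and +Pi. *PER54* had 3.12 and 3.23 in CRR OE –Pi and +Pi against 4.85 and 3.31 in Col-0 –Pi and +Pi. Both were highest in Col-0 –Pi, and as neighbouring copies they may share reads. The 250 bases before the annotated start of *PER54* and of *PER52* are shown, in RefSeq's TAIR10.1, read on the minus strand from 5′ to 3′. Both were picked by hand from the peroxidases highest in Col-0 –Pi, others of which, such as *PER53* and *PER49*, are not shown. The W-box core TTGAC, to which WRKY factors bind, is in capitals where it occurs on either strand. The windows are chr5:2081686-2081935 for *PER54* and chr5:1580876-1581125 for *PER52*.
PER54: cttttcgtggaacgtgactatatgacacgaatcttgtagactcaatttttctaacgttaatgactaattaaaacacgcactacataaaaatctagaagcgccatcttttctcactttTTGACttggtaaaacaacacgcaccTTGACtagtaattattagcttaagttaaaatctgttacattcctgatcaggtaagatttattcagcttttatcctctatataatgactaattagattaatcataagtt
PER52: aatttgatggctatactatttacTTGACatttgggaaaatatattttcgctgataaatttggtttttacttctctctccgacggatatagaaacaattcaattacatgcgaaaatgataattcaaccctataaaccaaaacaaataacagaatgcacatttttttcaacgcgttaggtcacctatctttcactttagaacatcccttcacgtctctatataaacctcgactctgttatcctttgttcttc
Both windows held the core, 2 times in *PER54* and 1 time in *PER52*. Of the 87 promoters of genes with a negative interaction, 58.6% held TTGAC (51 promoters), against 45.7% of the 81 of genes with a positive one (37 promoters) and 45.4% of the 17043 promoters of all genes kept. A match of letters is no evidence of binding.

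A pair of amino acid exporter genes was at the other end of the range. *UMAMIT17* and *UMAMIT20* encode members of a family of transporters that export amino acids. *UMAMIT17* (AT4G08300) had 3.88 and 5.14 log2 CPM in CRR OE –Pi and +Pi, against 1.48 and 5.23 in Col-0 –Pi and +Pi, with responses of -1.26 in CRR OE and -3.75 in Col-0 and an interaction of 2.49. *UMAMIT20* (AT4G08290) had 3.73 and 4.54 in CRR OE –Pi and +Pi, against 1.71 and 4.88 in Col-0 –Pi and +Pi, with responses of -0.81 in CRR OE and -3.16 in Col-0 and an interaction of 2.36. The lines were close to each other in +Pi, and in –Pi the CRR OE level was 5.27-fold the Col-0 level for *UMAMIT17* and 4.06-fold for *UMAMIT20*.

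These genes are neighbours on the plus strand of chromosome 4 (5238773 to 5241112 for *UMAMIT20* and 5244865 to 5248394 for *UMAMIT17*), 3752 bases apart, and may share reads. Their upstream windows are shown as those of the neighbouring pair with the most positive interactions, 250 bases each, plus strand, TAIR10.1 from RefSeq, at chr4:5238523-5238772 for *UMAMIT20* and chr4:5244615-5244864 for *UMAMIT17*. Capitals mark the G-box CACGTG.
UMAMIT20: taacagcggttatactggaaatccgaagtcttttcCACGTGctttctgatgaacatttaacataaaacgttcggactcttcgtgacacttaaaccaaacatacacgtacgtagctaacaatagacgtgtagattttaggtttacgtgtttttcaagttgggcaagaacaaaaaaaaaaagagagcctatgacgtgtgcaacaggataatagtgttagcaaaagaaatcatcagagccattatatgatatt
UMAMIT17: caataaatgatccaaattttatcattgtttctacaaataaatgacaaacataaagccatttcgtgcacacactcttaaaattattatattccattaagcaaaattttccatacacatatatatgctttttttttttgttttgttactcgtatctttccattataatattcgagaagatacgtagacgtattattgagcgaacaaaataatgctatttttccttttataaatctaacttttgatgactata
The window of *UMAMIT20* holds 1 G-box and that of *UMAMIT17* none. G-boxes were in 7.41% of the 81 promoters of genes with a positive interaction (6 promoters), in 5.75% of those with a negative one (5 promoters) and in 7.35% of all. The PHR1 site GNATATNC was in 7.41%, 4.60% and 5.49% of the same sets (6, 4 and 935 promoters). Both motifs were counted on both strands, without regard to overlap with the others.

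Across the *UMAMIT* and *SWEET* families, of 44 members found and 36 kept, 3 had an interaction of at least 1 and 3 of at most -1. The shares over all genes kept were 0.475% and 0.51%, and the median of these families was -0.03. *UMAMIT10* was the other positive one, with 3.67 and 1.37 log2 CPM in CRR OE –Pi and +Pi against 2.49 and 1.42 in Col-0 –Pi and +Pi, so here CRR OE responded more. *UMAMIT36* was negative with -2.13, at 1.05 and 2.30 in CRR OE –Pi and +Pi against 3.14 and 2.26 in Col-0 –Pi and +Pi. The sugar exporter genes *SWEET14* (-1.60) and *SWEET13* (-1.0) had higher means in –Pi in both lines, more so in Col-0. *UMAMIT36* was lowest in CRR OE –Pi and highest in Col-0 –Pi.

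Genes of darkness and sugar starvation had interactions of both signs. Of 26 members found and 21 kept, 3 were positive and 1 negative past the threshold, beside 0.475% and 0.51% of all genes, and the median was 0.03. At least 0.5 were 5 members and at most -0.5 were 3. *DIN10*, a raffinose synthase-like gene named for its induction in the dark, had 7.08 and 7.48 log2 CPM in CRR OE –Pi and +Pi against 6.72 and 8.18 in Col-0 –Pi and +Pi, an interaction of 1.06. *TPS8* and *TPS11*, class II trehalose phosphate synthase genes, had interactions of 1.33 and 1.15, and *TPS8* had 5.20 and 4.87 in CRR OE –Pi and +Pi against 4.25 and 5.25 in Col-0 –Pi and +Pi. The other kept genes of that class, *TPS9* and *TPS10*, had 0.64 and 0.49, and the trehalase gene *TRE1*, whose enzyme splits trehalose, had -1.37.

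Further genes stood outside the lists and were picked after their values, all positive, were seen, so they say nothing of the list. The transcription factor gene *BZIP1* had an interaction of 1.37, with 2.05 and 1.8 log2 CPM in CRR OE –Pi and +Pi against 1.18 and 2.31 in Col-0 –Pi and +Pi. The beta-galactosidase gene *BGAL4* had 6.74 and 7.46 in CRR OE –Pi and +Pi against 5.36 and 7.47 in Col-0 –Pi and +Pi, an interaction of 1.39. The dormancy-associated genes *DRM1* and *DRMH1* had 1.01 and 1.43, and *BT2*, a BTB and TAZ domain gene, had 1.1. In each of these 5 genes the response was nearer to 0 in CRR OE than in Col-0. Phloem and carbon transport gave a further value, as the companion cell sucrose carrier *SUC2* had 5.44 and 5.15 in CRR OE –Pi and +Pi against 4.45 and 5.41 in Col-0 –Pi and +Pi, with an interaction of 1.26. It was the 1 gene past the threshold among the 13 vascular genes kept, whose median was 0.00. Over all genes kept, 0.475% were positive and 0.51% negative past the threshold.

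The rule that took the 12 most positive and 12 most negative interactions, ranked after 1 CPM was added, named further genes. AT2G43620, annotated as an endochitinase, had 1.8 and 2.09 log2 CPM in CRR OE –Pi and +Pi against 4.48 and 1.41 in Col-0 –Pi and +Pi, an interaction of -3.35. *CML12*, a calmodulin-like gene also known as *TCH3* for its response to touch, had 3.72 and 3.33 in CRR OE –Pi and +Pi against 6.12 and 3.43 in Col-0 –Pi and +Pi, an interaction of -2.30. In both genes the Col-0 –Pi mean stood above 3 like values. *GAD4*, for a glutamate decarboxylase that makes GABA, had the same form at a low level, with -0.63 and -0.56 in CRR OE –Pi and +Pi against 2.12 and -0.52 in Col-0 –Pi and +Pi, an interaction of -2.70.

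In a further set CRR OE and Col-0 had sizeable responses of opposite sign. AT1G52700, an alpha/beta-hydrolase gene, had responses of -1.63 in CRR OE and 1.32 in Col-0, *NIT4*, whose nitrilase detoxifies beta-cyanoalanine, -1.10 in CRR OE and 1.08 in Col-0, and *UMAMIT36* -1.25 in CRR OE and 0.88 in Col-0. AT4G39830, the remaining gene at this end, had -0.26 in CRR OE and 1.70 in Col-0, and an interaction of -1.96.

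At the positive end, AT4G37950 had 1.85 and 2.09 log2 CPM in CRR OE –Pi and +Pi against -0.73 and 2.07 in Col-0 –Pi and +Pi, an interaction of 2.56. Its Col-0 –Pi mean stood alone below the other 3. *GAT1_2.1*, a glutamine amidotransferase-like gene, had 5.54 and 2.62 in CRR OE –Pi and +Pi against 5.0 and 3.73 in Col-0 –Pi and +Pi, and responses of 2.93 in CRR OE and 1.27 in Col-0. *UBC17*, for a probable ubiquitin-conjugating enzyme, had 4.47 and 3.01 in CRR OE –Pi and +Pi against 3.13 and 3.46 in Col-0 –Pi and +Pi, an interaction of 1.8. These last 2 genes were highest in CRR OE –Pi.

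The others at this end were *MEE14* (1.77), *ATCTH* for a CCCH zinc finger protein (1.65), and AT3G61210 (1.83), AT4G37700 (1.65), AT5G21940 (1.52), AT3G15450 (1.49) and AT3G19430 (1.45). AT3G15450 was lower in CRR OE +Pi, at 5.90 log2 CPM, than in Col-0 +Pi, at 7.16, while CRR OE –Pi and Col-0 –Pi had 5.37 and 5.14. For this gene the interaction came mostly from the +Pi roots.

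**Figure D4:**
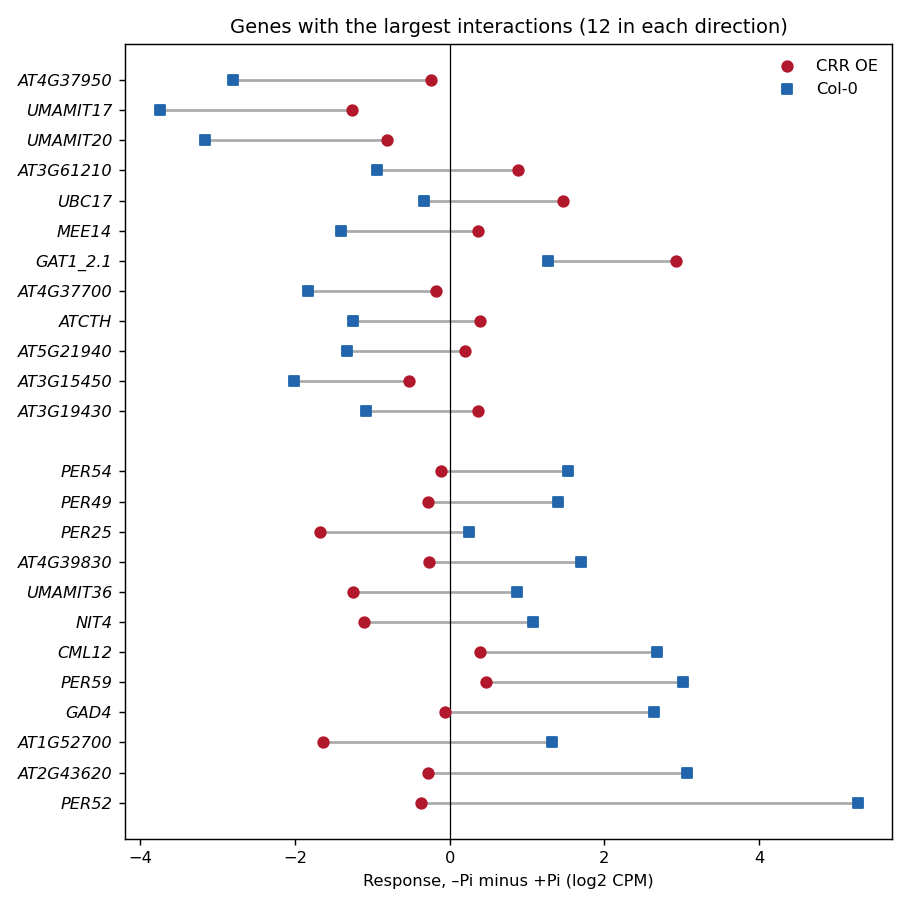
Response to low Pi (–Pi minus +Pi, log2 CPM) of the 12 genes with the most positive and the 12 with the most negative interaction after 1 CPM was added, red circles for CRR OE and blue squares for Col-0, with a line joining the 2 responses of a gene. The gap is widest in PER52, with -0.37 in CRR OE and 5.27 in Col-0.

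Pi starvation genes responded strongly and alike. Of 42 members found 41 were kept, and 29 had a response of at least 1 in CRR OE and 29 in Col-0, with medians of 3.11 in CRR OE and 3.40 in Col-0. *SPX1*, an inhibitor of PHR1, had 9.46 and 2.70 log2 CPM in CRR OE –Pi and +Pi against 9.59 and 2.89 in Col-0 –Pi and +Pi, an interaction of 0.06. The noncoding RNA gene *IPS1*, a mimic of the target of miR399, had an interaction of -0.01, and *PHR1* itself had 0.10. The median interaction of the list was -0.09, with 26 members negative and 15 positive.

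None of the 41 had an interaction of at least 1 and 2 had one of at most -1, beside 0.475% and 0.51% of all genes kept. *RNS1*, a secreted ribonuclease that frees Pi from RNA, had 2.99 and 1.54 log2 CPM in CRR OE –Pi and +Pi against 3.88 and 1.12 in Col-0 –Pi and +Pi, an interaction of -1.32. The gene that the table names *PEPC1* (AT1G17710), a phosphatase of phosphoethanolamine and phosphocholine, had 8.62 and -3.53 in CRR OE –Pi and +Pi against 8.81 and -4.38 in Col-0 –Pi and +Pi. Its interaction of -1.03 rests on +Pi levels far below 1 CPM and was -0.24 after 1 CPM was added. The high-affinity Pi transporter gene *PHT1-4* had -0.65, with responses of 2.83 in CRR OE and 3.48 in Col-0.

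The main genes of iron uptake at the root surface had lower means in –Pi in both lines, less so in CRR OE. *IRT1*, the iron transporter, had 6.35 and 7.80 log2 CPM in CRR OE –Pi and +Pi against 5.10 and 7.31 in Col-0 –Pi and +Pi, an interaction of 0.76. *FRO2*, the ferric chelate reductase, had 6.21 and 6.84 in CRR OE –Pi and +Pi against 4.88 and 6.38 in Col-0 –Pi and +Pi, an interaction of 0.87. *CYP82C4*, which makes the iron-mobilising coumarin sideretin, had 0.80, with 3.34 and 6.06 in CRR OE –Pi and +Pi against 2.00 and 5.52 in Col-0 –Pi and +Pi. All 3 were higher in CRR OE in both media, more so in –Pi, and none reached the threshold.

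The nicotianamine synthase genes, whose product carries iron inside the plant, had the other sign. *NAS2* had 4.68 and 5.96 log2 CPM in CRR OE –Pi and +Pi against 5.85 and 5.67 in Col-0 –Pi and +Pi, an interaction of -1.46, and it was the 1 gene past the threshold among the 30 kept of 33 iron deficiency genes. Of all genes kept, 0.51% were negative and 0.475% positive past the threshold. *NAS4* had -0.97 and *NAS1* -0.64. The regulator *FIT* had -0.39, and the median of the list was -0.14 with 22 members negative. Under the filter, *BHLH100* and AT3G12900 had interactions of 1.67 and 1.63, both with their lowest mean in Col-0 –Pi.

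Iron storage and transport had no gene past the threshold among 13 kept of 14, and a median of -0.03. The ferritin genes *FER1* and *FER4* had -0.29 and -0.04. The members farthest from 0 were the vacuolar iron transporter-like genes AT1G76800 (0.95), with 3.12 and 3.65 log2 CPM in CRR OE –Pi and +Pi against 2.02 and 3.49 in Col-0 –Pi and +Pi, and AT1G21140 (0.76). Among ferric reductase oxidases, 4 of 5 were kept and *ATFRO5* was past the threshold with -1.27, at 4.22 and 6.85 in CRR OE –Pi and +Pi against 5.49 and 6.85 in Col-0 –Pi and +Pi. *FRO4* had -0.93, with a mean of 6.45 in CRR OE –Pi and 7.24 in Col-0 –Pi. FRO4 and FRO5 act mainly in copper reduction, and the copper transporter genes *COPT2* and *COPT1* had -0.82 and -0.63. *CSD1*, a copper superoxide dismutase gene, had 0.62, with 8.19 and 7.22 in CRR OE –Pi and +Pi against 7.43 and 7.09 in Col-0 –Pi and +Pi. Over the 16 copper genes kept of 17, the median was -0.20, and 1 was past the threshold. For these lists, the shares over all genes kept were 0.51% negative and 0.475% positive.

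Genes known for the stop of root growth in low Pi showed small interactions. None of the 12 kept of 14 was past the threshold, and the median was -0.13. *LPR1* had 3.12 and 3.23 log2 CPM in CRR OE –Pi and +Pi against 3.30 and 3.14 in Col-0 –Pi and +Pi, an interaction of -0.28, *ALMT1* had -0.43, and *PDR2*, an ATPase gene of the endoplasmic reticulum that restrains LPR1, had 0.06. The member farthest from 0 was AT5G35735, a CYBDOM gene known as *HYP1*, with 4.78 and 4.86 in CRR OE –Pi and +Pi against 5.26 and 4.84 in Col-0 –Pi and +Pi, an interaction of -0.49. All 10 CYBDOM genes were kept, none was past the threshold, and the median was 0.01.

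Redox and detoxification genes differed by family. None of 19 regulators and enzymes of oxidative stress was past the threshold, with a median of -0.05, and the NADPH oxidase genes *RBOHD*, *RBOHF* and *RBOHC* had -0.17, -0.09 and 0.00. Glutathione S-transferases, which join glutathione to toxic compounds, had 4 negative and 0 positive genes past the threshold among 38 kept of 44. Beside this stood 0.51% negative and 0.475% positive of all genes kept. The median of the list was -0.14, with 27 members negative. *GSTF2* had 5.98 and 7.18 log2 CPM in CRR OE –Pi and +Pi against 7.02 and 6.89 in Col-0 –Pi and +Pi, an interaction of -1.33, and *GSTF6*, *GSTF14* and *GSTU4* had -1.24, -1.12 and -1.04. The listed cytochromes P450 had 4 negative and 0 positive among 123 kept of 153, beside 0.51% and 0.475% of all genes kept. The negative ones were *CYP96A8* (-1.40), *CYP94D1* (-1.12), *CYP702A5* (-1.04) and *CYP705A2* (-1.02), and the median of the list was -0.10. AT5G36130, annotated as a cytochrome P450 but outside the list, had 1.08. Of 12 glutaredoxin genes kept of 17, *GRXS13* had 1.03 and the other 11 were negative, with a median of -0.10. The thioredoxin genes *TRX8* and *TRX7*, picked after their values were seen, had -1.11 and -1.08.

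Cell wall genes also had both signs. The xyloglucan endotransglucosylase genes *XTH26* and *XTH13*, whose enzymes cut and rejoin xyloglucan, had -1.45 and -1.38 among 46 expansin and *XTH* genes kept of 49, with 0 positive past the threshold and a median of -0.02. *XTH13* had 4.17 and 3.06 log2 CPM in CRR OE –Pi and +Pi against 5.18 and 2.68 in Col-0 –Pi and +Pi, so both lines responded upwards and Col-0 more. Pectin methylesterases and their inhibitors had 3 negative and 0 positive genes among 35 kept of 42, *PME41* (-1.19), *PME12* (-1.16) and *PMEI11* (-1.08), with a median of -0.10. For both lists, the shares over all genes kept were 0.51% negative and 0.475% positive.

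Extensins and arabinogalactan proteins tended the other way, with a median of 0.14 over 50 kept of 54 and 34 members positive. *AGP30* had 6.91 and 6.95 log2 CPM in CRR OE –Pi and +Pi against 5.93 and 7.15 in Col-0 –Pi and +Pi, an interaction of 1.19, *AGP13* had 1.39 and the fasciclin-like gene *FLA6* had -1.44, and these were the 3 past the threshold. The shares past the threshold over all genes kept were 0.475% positive and 0.51% negative. *AGP30* was low in Col-0 –Pi and alike in the other 3 groups.

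Lignin and secondary wall genes held no member past the threshold among 31 kept of 35, but the list was not of a single kind. Its median was 0.25, and 8 members had an interaction of at least 0.5 while none had one of at most -0.5. Those 8 include the laccase genes *LAC17* (0.90), *IRX12* (0.85) and *LAC11* (0.64), whose enzymes join monolignols, and the xylem protease gene *XCP2* (0.74). *LAC17* had 5.70 and 5.42 log2 CPM in CRR OE –Pi and +Pi against 4.68 and 5.31 in Col-0 –Pi and +Pi. The cellulose synthase genes of the secondary wall, *CESA4*, *CESA7* and *CESA8*, had 0.37, 0.39 and 0.47. Most genes that make the monolignols lay near or below 0, with *CCoAOMT1* at -0.40, *OMT1* at -0.32 and *PAL1* at -0.18, while *PAL4* was at 0.73. Under the filter, the nuclease gene *ENDO2* had -3.49, with means under 2 log2 CPM in every group. *LAC2*, a laccase gene outside the list and picked after its values were seen, had 1.40. In such bulk roots a lower share of xylem cells and less RNA per xylem cell cannot be told apart.

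Among markers of root cell types few genes had a large interaction. The shares past the threshold over all genes kept were 0.475% positive and 0.51% negative. Root hair genes had median responses of 1.19 in CRR OE and 1.25 in Col-0 over the 33 kept of 33, a median interaction of -0.08 and 1 gene past the threshold, the proline-rich wall protein gene *PRP1* with -1.23. Stem cell niche genes had none among 12 kept of 16, with a median of -0.08, and the regulators *PLT1*, *PLT2* and *SCR* had -0.31, -0.24 and -0.13. Cell cycle genes had none among 41 kept of 42 and a median of 0.05, with *CYCD6-1* farthest from 0 at -0.59. Casparian strip genes (12 kept of 13, median 0.05, *CIF1* farthest at -0.46) and root cap genes (6 kept of 7, median -0.04, *SMB* farthest at -0.21) had none either. Suberin genes had a median of -0.22 with 13 of 14 kept members negative, none past the threshold, and the acyltransferase gene *GPAT7* farthest at -0.57.

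Nitrate assimilation had mainly negative interactions. Of 28 genes kept of 29, 21 were negative, the median was -0.21, and 2 were at most -1, beside 0.51% of all genes kept. *NIA1*, a nitrate reductase gene, had 5.72 and 7.60 log2 CPM in CRR OE –Pi and +Pi against 6.78 and 7.15 in Col-0 –Pi and +Pi, responses of -1.88 in CRR OE and -0.36 in Col-0 and an interaction of -1.52. *NIA2*, the other nitrate reductase gene, had -0.85 and the nitrite reductase gene *NIR1* -0.66. *NPF7.2*, a nitrate transporter gene, had -1.04. In *NIA1* the lines differed in both media with opposite signs, lower in CRR OE in –Pi and higher in CRR OE in +Pi.

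Jasmonate genes had 16 of 17 kept members negative, of 23 found, with a median of -0.28 and none past the threshold, and the allene oxide cyclase gene *AOC3* had -0.71, with 5.55 and 5.36 log2 CPM in CRR OE –Pi and +Pi against 6.21 and 5.31 in Col-0 –Pi and +Pi. Further genes were picked after their values were seen, so their signs say nothing of the list. These were the transcription factor genes *WRKY48* (-1.20) and *WRKY51* (-1.09) and the senescence-associated *SAG21* (-1.19). The ethylene-responsive transcription factor gene *ERF107*, picked likewise, had 1.26. Tryptophan-derived defence had 1 positive gene, the indole glucosinolate methyltransferase *IGMT1* (1.05), among 23 kept of 25, with a median of 0.01. Triterpene and terpene synthesis had *MRN1*, the marneral synthase gene, at 1.25 and the terpene synthase gene *TPS25* at -1.51, with a median of 0.20 over 15 kept of 18. For both of these last lists, the shares over all genes kept were 0.475% positive and 0.51% negative.

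Photosynthesis genes had the most displaced median of all lists upwards, 0.29, with 27 of 31 kept members positive and *RBCS-1A* past the threshold with 1.20. Of all genes kept, 0.475% were positive past the threshold. The median responses of the photosynthesis genes were -0.50 in CRR OE and -0.74 in Col-0. *RBCS-1A* had 3.71 and 3.33 log2 CPM in CRR OE –Pi and +Pi against 3.18 and 4.0 in Col-0 –Pi and +Pi, and as one of several near-identical small subunit genes it may share reads with the others. The part that green tissue has in these values was not tested.

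The remaining lists stayed near 0. Cytosolic ribosomal protein genes had none past the threshold among 186 kept of 189, with a median of 0.04 and 137 members positive, and reference genes none among 17, with a median of 0.02. Aquaporins (26 kept of 29, median -0.05, *PIP2-4* farthest at 0.57), branched-chain amino acid breakdown (9 of 11, 0.08, *MCCA* farthest at 0.34), floral repressors (5 of 8, 0.03, *MAF3* farthest at 0.10) and wound and stem cell ERF factors (6 of 10, -0.20, *anac096* farthest at -0.91) had none past the threshold.

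The 36 lists hold 1173 of the 19802 genes of the table, and 50 of the 168 genes past the threshold are in a list, spread over 19 lists. The other genes past the threshold are in no list. As the lists were chosen with earlier results of these data known, this share is a description only.

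**Figure D5:**
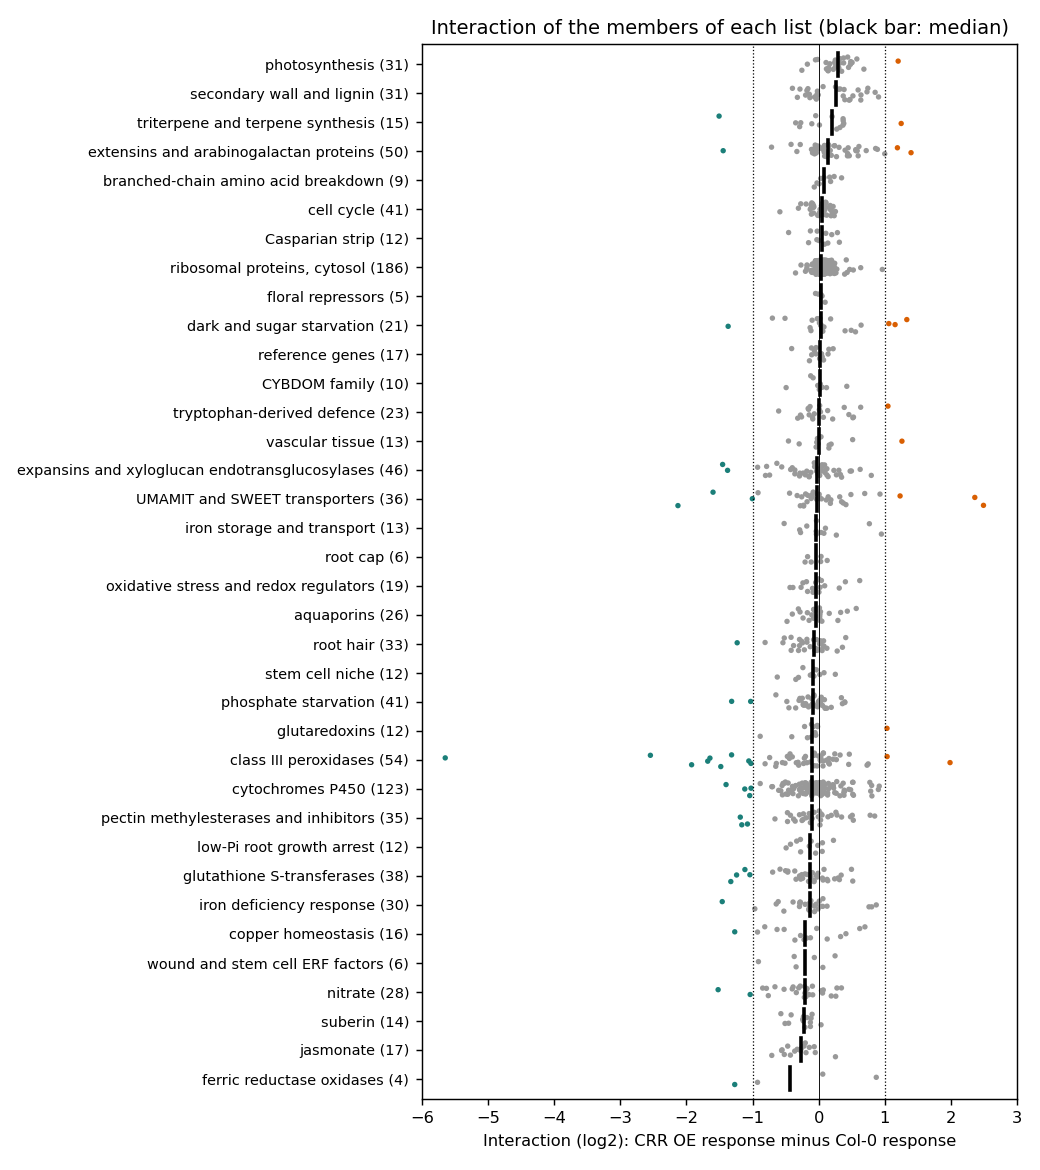
Interaction (CRR OE response minus Col-0 response, log2) of the kept members of the 36 gene lists, 1 row per list and 1 point per gene, with the median as a black bar and dotted lines at 1 and -1. Medians lie near 0, and the class III peroxidases reach farthest left, with PER52 at -5.65.

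Some genes past the threshold were next to each other on a chromosome. Among protein-coding genes in chromosome order, 4 pairs of neighbours were past the threshold with the same sign and 0 with opposite signs. How many such pairs would arise by position alone was not tested. Besides the pairs *PER4* and *PER5*, *UMAMIT20* and *UMAMIT17*, and *PER53* and *PER54*, the fourth was AT5G46890 and AT5G46900 on chromosome 5 (19036296 to 19036938 and 19039701 to 19040456), which encode lipid-transfer-like proteins. AT5G46890 had 6.76 and 6.73 log2 CPM in CRR OE –Pi and +Pi against 5.49 and 6.78 in Col-0 –Pi and +Pi. AT5G46900 had 6.80 and 6.82 in CRR OE –Pi and +Pi against 5.70 and 6.90 in Col-0 –Pi and +Pi, and the interactions were 1.33 and 1.18. Each pair joins genes of one family, so reads shared between copies could tie their values together. By chromosome, the share of kept genes past the threshold was 1.01%, 1.1%, 0.825%, 1.14% and 0.924% for chromosomes 1 to 5.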

How the data were processed

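Root RNA of 12 libraries in 4 groups was sequenced. Cutadapt 1.8, STAR 2.5.3a on TAIR10 and htseq-count 0.9.1 were used by the authors to trim, align and count reads, and edgeR 3.24.3 for TMM scaling, after genes under 1 CPM in every library were removed. RSEM 1.2.31 and R 3.5.3 are listed in the submitters' processing notes too. Labels name a column kit for RNA extraction and the methods another reagent. The authors deposited log2 CPM as 1 mean per group for 19802 genes, which hides library depth and the spread between libraries and leaves low means noisy. Per the methods, seedlings were pooled within a library, and nothing used here says whether pools were grown separately. The 5 deposited comparison tables hold the authors' fold changes and p-values, including those of the interaction, from a linear model in limma, and were not used.

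Responses, line differences and interactions were computed as differences of the group means with pandas 2.3.3 and numpy 2.4.6 in Python 3.11.15. Genes with a highest group mean of at least 2 log2 CPM were counted past 1 log2 in either direction. No test was made, since no value per library was used. Responses were classed at 0.5 log2. Named genes were *CRR*, the 12 most positive and 12 most negative interactions ranked after 1 CPM was added, list members, first those past the threshold or else the member farthest from 0, and neighbouring genes past the threshold. Further list members were added for their known roles with their values in view, and genes in no list and at neither end were picked after their values were seen. Members and lists were chosen with earlier results of these data known, and symbols that matched the wrong locus were corrected. Gene names were blank for 9374 genes, and 19783 identifiers matched the RefSeq table of TAIR10.1, whose coordinates equal those of TAIR10. Promoter windows are the 250 bases before the annotated start, found for 17043 of 17046 genes. The computation was tested on simulated data. Alternatives were other filters, added CPM, fold thresholds and centring.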

Additional observations from a re-analysis of the deposited data

How the results depend on the processing

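Settings were run per gene for the 85 genes named by the rule, of which 68 were past the threshold, and none of these 68 changed sign. Counts followed the filter and the threshold. They are given in the order of genes with an interaction past the threshold upwards, downwards, genes with the larger line difference in –Pi, less positive responses in CRR OE, more negative ones, less negative ones, more positive ones and same-sign neighbouring pairs. These were 81, 87, 153, 66, 13, 65, 12 and 4 as reported, and 216, 210, 359, 154, 32, 150, 45 and 17 with no filter. With a filter at 0 log2 CPM they were 173, 186, 314, 137, 28, 131, 26 and 10. A filter at 4 log2 CPM gave 43, 37, 71, 26, 38, 5 and 2 for all but the more negative responses, which stayed within 1.5 times. A threshold of 1.5 times on the linear scale gave 332, 305, 547, 210, 46, 232, 52 and 18, and one of 1.5 log2 gave 16, 23, 35, 16, 3, 12, 2 and 1. Adding 1 CPM moved the downward count to 56, the less positive responses to 41 and the more positive ones to 7. Of the 81 genes with a positive interaction, 57 stayed past the threshold with 1 CPM added. Other filters and thresholds change the counts by their own construction, as fewer or more genes are counted. Added CPM instead brings the log ratios of low means nearer to 0. Of these 68 genes, 57 were past the threshold with 1 CPM added and 61 with 0.5 CPM. Centring on all kept genes or on reference genes shifted the interaction by 0.00075 and 0.02 and left all 68 past it, while *CRR*, at 0.02, changed sign under the second, at -0.01. List medians moved by at most 0.49, and up to 4 of 36 changed sign under a setting.

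The settings for neighbouring genes and for the response of each line were chosen after seeing the data. No paired analysis was possible because the table holds group means and no column per library, and leaving out each replicate was not run for the same reason. Low levels limit the log ratios most, as the wider range of interactions under 2 log2 CPM shows.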

Other observations

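Genes under the filter of 2 log2 CPM were not counted, and 135 of these 2756 had an interaction of at least 1 and 123 of at most -1. A run of triterpene genes on chromosome 4, picked after the values were seen, joins both sides of the filter. *BARS1* (AT4G15370), the baruol synthase gene, had -2.12 and -1.60 log2 CPM in CRR OE –Pi and +Pi against 1.06 and -2.16 in Col-0 –Pi and +Pi, an interaction of -3.74. Its neighbour *CYP705A3* had -3.03 and -2.35 in CRR OE –Pi and +Pi against -0.06 and -3.33 in Col-0 –Pi and +Pi, an interaction of -3.95. *CYP705A2* and *CYP702A5*, close by, had -1.02 and -1.04. In all 4 genes the highest mean was in Col-0 –Pi, and *BARS1* and *CYP705A3* were below 1 CPM in the other 3 groups. *TPS13* and *CYP71A20*, neighbours elsewhere on that chromosome, had 3.02 and 1.89, with the lowest mean in Col-0 –Pi, and both are low in every group.

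AT1G64795 had 3.65 and 4.10 log2 CPM in CRR OE –Pi and +Pi against -3.56 and -4.15 in Col-0 –Pi and +Pi. It was the gene with the largest difference between the lines in both media, *CRR* included, and its interaction of -1.04 was -0.45 after 1 CPM was added. *HOL2* had 4.37 and -4.40 in CRR OE –Pi and +Pi against 5.13 and -4.71 in Col-0 –Pi and +Pi, and -4.71 is the lowest value of the table, found in a group of 21 genes, so no fold is given for it.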
